A study of Mus musculus with 4 samples.

Results

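Of 88930 replicated H3K27ac peaks of mouse hippocampal layer tissue, 1529 lay at the 3' end of a protein-coding gene, clear of the start sites of basic transcripts. A peak was taken when it overlapped no window reaching 1 kb either side of a transcription start site (TSS) of a GENCODE M21 basic transcript and when its midpoint lay within 1 kb of the end of a coding gene's record, read along its strand. They made up 1.72% of the replicated peaks and 2.21% of the 69259 non-promoter peaks. The members were chosen by position alone, and no signal entered the choice.

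All 4 samples came from male B6CASTF1/J mice aged 2 months, an F1 hybrid strain, and there was no other genotype, treatment or input group among them. Biological replicate 1 is a pool labelled C and biological replicate 2 a pool labelled D, each joining 7 biosamples. Their chromatin was precipitated with an antibody to H3K27ac, with 2 technical replicates a pool and DNA fragments of 200 to 600 bp. The deposited files are 4 peak lists, 1 for each pool, 1 for both pools together and the replicated list, so a peak has 1 value a list and no value per sample. The lists hold no read counts, so the depth behind a signal is unknown, and 1 group leaves no contrast to test. Each pool mixes several animals and all cell types of the tissue, so fewer cells carrying a mark and less mark per cell cannot be told apart.

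H3K27ac is acetylation of lysine 27 on histone H3, found on nucleosomes beside active promoters and enhancers. The 3' end of a gene is where the transcript is cleaved and polyadenylated and where RNA polymerase II runs on before it is released. Enhancers can lie there as they can in introns. Where neighbouring genes are convergent, transcribed towards each other from opposite strands, their 3' ends come to lie side by side or overlap.

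Of the strongest of these peaks with summits outside every annotated exon, 6 are shown by sequence, because they carry the contrast described further on between CpG-rich and CpG-poor 3'-end peaks. Each line gives 120 bp centred on the summit, 5' to 3' on the plus strand of the RefSeq GRCm38 (mm10) genome. This is the reference sequence, and the other parental genome of the hybrid may differ from it. Capitals mark matches to motif words in Dnajb12 (CAGCTG, an E-box), Rtn4r (a CTCF word) and Sertad1 (the E-box, and a stretch on the other strand where GCGNGGGCG, an EGR word, and GGGCGG, an SP/KLF word, overlap). Capitals mark the CG dinucleotides in Tmem44, Bad and Lmod1, whose 120 bp held none of the 9 words searched.
Dnajb12, chr10:59900063-59900182: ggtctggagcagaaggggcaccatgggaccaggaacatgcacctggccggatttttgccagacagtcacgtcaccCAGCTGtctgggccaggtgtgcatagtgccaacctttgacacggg
Rtn4r, chr16:18152755-18152874: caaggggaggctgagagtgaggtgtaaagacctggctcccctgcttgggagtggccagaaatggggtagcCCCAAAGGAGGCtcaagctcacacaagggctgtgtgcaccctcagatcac
Tmem44, chr16:30510814-30510933: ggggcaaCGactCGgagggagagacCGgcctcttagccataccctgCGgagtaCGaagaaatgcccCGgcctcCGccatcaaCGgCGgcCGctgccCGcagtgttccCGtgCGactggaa
Bad, chr19:6951954-6952073: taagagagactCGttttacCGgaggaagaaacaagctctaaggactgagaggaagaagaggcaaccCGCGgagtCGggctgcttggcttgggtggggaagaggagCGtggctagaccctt
Lmod1, chr1:135368511-135368630: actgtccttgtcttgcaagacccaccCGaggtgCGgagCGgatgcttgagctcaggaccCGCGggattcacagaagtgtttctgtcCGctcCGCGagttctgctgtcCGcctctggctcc
Sertad1, chr7:27490512-27490631: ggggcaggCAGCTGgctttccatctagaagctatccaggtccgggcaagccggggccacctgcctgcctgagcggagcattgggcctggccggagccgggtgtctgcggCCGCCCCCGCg
The windows at Tmem44, Lmod1 and Bad held 13, 9 and 6 CG dinucleotides. That of Sertad1 held 9 with a GC content of 72.5%, while those of Dnajb12 and Rtn4r held 3 and 0. By the definition used further on, over 500 bp, the windows of Tmem44, Bad and Lmod1 were CpG-rich and those of Dnajb12, Rtn4r and Sertad1 were not, the last with a CpG ratio of 0.451.

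The 3'-end peaks were 1.26 times as many as even placement would give. With every peak's midpoint equally likely at each position of its chromosome, the mean that shuffled peaks would approach was worked out exactly as 1210 peaks, or 1.36% of the list. Limiting the positions to those outside assembly gaps gave an expectation of 1244 and a fold of 1.23. Taken from each pool's own list, the fold was 1.32 for C and 1.19 for D, so it lay above 1 in either. Promoter peaks enter this expectation but cannot be 3'-end peaks, so they lower the fold by construction. Over the 69259 non-promoter peaks alone, placed clear of the TSS windows, the expectation was 1016 and the fold 1.5, a setting added after seeing the data. In that setting the fold was 1.55 for peaks with a signal above the median of the replicated list (607 of 27357, or 2.22%) and 1.48 for the others (922 of 41902, or 2.2%).

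The peaks were not stacked on the 3' end itself. Of the 19738 coding 3' ends that lie over 1 kb from every basic TSS, 5.06% fell inside a non-promoter peak. Positions within 1 kb on the gene side were covered in 5.75% of genes and those within 1 kb downstream in 5.14%. Further out, coverage was 5.28% between 1.2 and 4.8 kb on the gene side, 4.76% at the same distance downstream, and 4.62% and 3.9% between 5 and 10 kb on the gene side and downstream. Non-promoter peaks covered 3.03% of the genome, so over all these genes together coverage was above the genome's level at each of these distances. The end itself stood slightly below the 1 kb on either side of it.

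**Figure D1:**
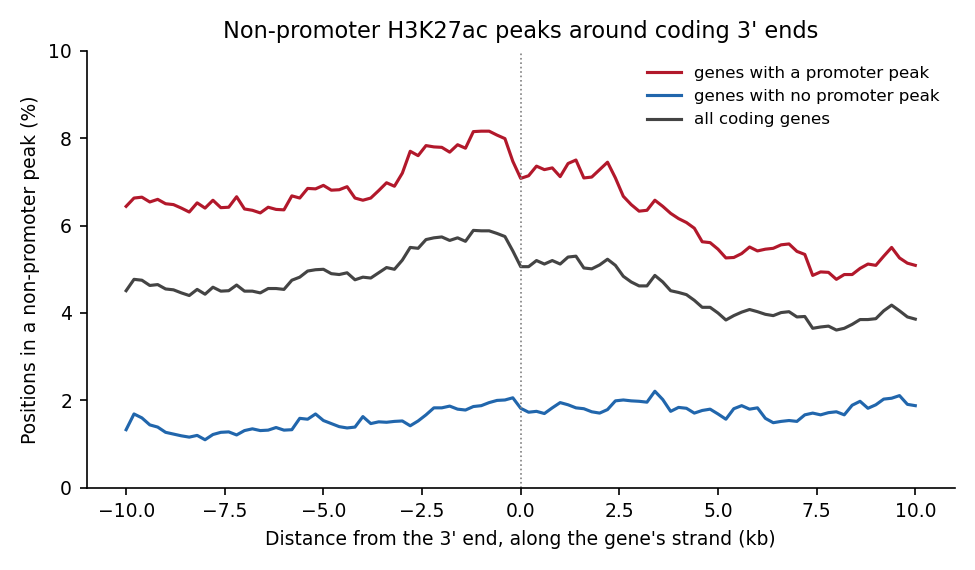
Share of coding 3' ends (%, y axis) at which a position at a given distance (kb along the gene's strand, x axis) lies in a non-promoter replicated peak, for genes with a promoter peak, genes with none and all coding genes. The line for genes with a promoter peak stands at 7.08% at the 3' end and that for genes with none at 1.82%, and both change slowly over 10 kb.

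Most of the coverage around 3' ends was at genes with a promoter peak, as the plot of coverage by distance shows. In them 7.08% of 3' ends were covered by a non-promoter peak, against 1.82% in genes with no promoter peak. On the gene side within 1 kb the shares were 7.97% and 1.98%, and downstream within 1 kb 7.25% and 1.79%. In genes with a promoter peak coverage was lower at 5 to 10 kb downstream, 5.23%, than at the same distance on the gene side, 6.52%. Genes with no promoter peak ran from 1.36% to 1.98% over the same ranges of distance, below the 3.03% of the genome.

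The midpoint lay upstream of the 3' end, towards the gene, in 837 members (54.7%), downstream in 691 and exactly on it in 1. Even placement gives 49.8% upstream, so the fold over it was 1.39 on the gene side and 1.14 downstream. The median midpoint lay 112 bp upstream (-112 bp) and the median summit 116 bp upstream (-116 bp). Altogether 742 members (48.5%) covered the 3' end itself. Summits lay in the non-coding part of a coding gene's exon in 655 members (42.8%) in no gene in 502 (32.8%), in a coding gene's intron in 198 (12.9%) and in coding sequence in 148 (9.68%).

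In strength and width the 3'-end peaks were like the other non-promoter peaks. The authors' signal, a score of each peak used here only within a list, had a median of 3.9 in 3'-end peaks, with quartiles of 3.12 and 5.32, against 3.87 in the 67730 other non-promoter peaks, with quartiles of 3.12 and 5.21. Promoter peaks had a median of 9.79. The median width was 830 bp in 3'-end peaks, 850 bp in other non-promoter peaks and 1412 bp in promoter peaks. Both quantities thus differed from those of the other non-promoter peaks by far less than the spread among peaks.

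Support from the pools was also near that background. Peaks of both pool lists overlapped 685 of the 1529 3'-end peaks (44.8%), against 45.8% of the other non-promoter peaks and 54.0% of all replicated peaks. Another 544 members (35.6%) were overlapped in pool C alone, 19 (1.24%) in pool D alone and 281 (18.4%) in neither, where the replicated list holds a peak that the pool lists do not. Over the 685 peaks with a value in both pools the median signal was 6.63 for pool C peaks, against 4.36 for those of pool D, each on its own list's scale. Their ranks ran together across these peaks, with a Spearman correlation of 0.74, given as a description since the peaks share both libraries.

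Base composition differed from that of other non-promoter peaks more than strength did. CpG-rich summit windows, with a GC content of at least 50% and an observed over expected CpG ratio of at least 0.6 over 500 bp, occurred in 71 members (4.64%, 95% Wilson interval 3.7 to 5.82%, which covers counting error only). The share was 1.25% in other non-promoter peaks and 55.4% in promoter peaks. The median GC content of the windows was 49.8% in 3'-end peaks and 46.2% in other non-promoter peaks. The median CpG ratio was 0.232 and 0.206 in the same order.

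**Figure D2:**
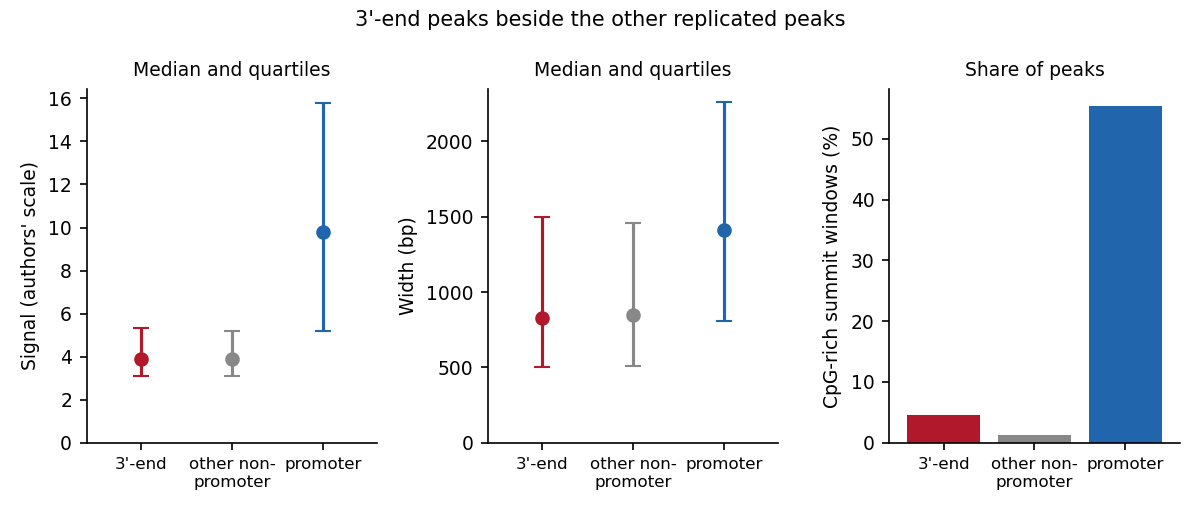
Signal (authors' scale) and width (bp) as median with quartiles, and the share of peaks with a CpG-rich summit window (%), for 3'-end peaks, other non-promoter peaks and promoter peaks. Signal and width of the first and second class overlap over nearly their whole range, and the CpG-rich shares are 4.64%, 1.25% and 55.4%.

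The CpG-rich members were also the stronger ones. Their median signal was 7.06, against 3.82 in the remaining members, and 74.6% of them were overlapped in both pool lists. Sorted by signal into 4 equal parts, the members held 4, 8, 13 and 46 CpG-rich windows from the weakest part to the strongest. In the strongest part, with signals from 5.32 to 29.3, 12% were CpG-rich, 97.9% were in both pool lists and 79.1% covered the 3' end. In the weakest part, with signals from 1.57 to 3.12, the shares were 1.05%, 5.76% and 26.4%. Width differed too, with a median of 1831 bp in the strongest part and 515.5 bp in the weakest. Since the rule keeps midpoints within 1 kb of the 3' end, wider members cover that end more often by construction.

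CpG-rich sequence is best known from promoters, so start sites beyond the basic set were looked up. Of the 71 CpG-rich members, 12 had a start of some other GENCODE transcript within 1 kb, 8 had a RefSeq transcript start, and 55 had neither. Over all 1529 members, 146 (9.55%) had another GENCODE start within 1 kb, 52 (3.4%) a RefSeq start and 1338 neither. The shares among other non-promoter peaks were 5.56% for GENCODE starts and 5.06% for RefSeq starts. A replicated promoter peak lay within 1 kb of 163 members (10.7%), against 5.11% of other non-promoter peaks, and the median distance to the nearest basic TSS was 7.84 kb against 18.2 kb. How far this nearness to starts, or the larger share of summits in exons, accounts for the CpG-rich members was not tested.

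Several motif words rich in C and G were more frequent in 200 bp around the summit than in other non-promoter peaks. GGGCGG, the word of SP and KLF factors, occurred in 91 members (5.95%) against 3.17% of other non-promoter peaks and 27.5% of promoter peaks, both strands searched. A consensus word for CTCF occurred in 26 (1.7%) against 0.783%, and the EGR word GCGNGGGCG, which can overlap GGGCGG, in 10 (0.654%) against 0.134%. Other words were about as frequent as in other non-promoter peaks, with TGANTCA (AP-1) in 5.49% against 6.16%, a MEF2 word in 3.01% against 3.34% and CAGATG (an E-box) in 17.5% against 17.2%. CAGCTG, the other E-box, stood at 16.0% against 13.4%. TGACGTCA (CRE) and GTTGCCATG (RFX) were found in 4 and 7 members, too few to set against the other peaks. A match is a description of the letters, and its tie to GC content was not tested. The polyadenylation word AATAAA stood in the last 51 bp of 61.7% of genes with a 3'-end peak and 60.3% of genes without.

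Gene by gene, 1513 of the 19738 coding 3' ends over 1 kb from basic TSSs had a 3'-end peak, or 7.67%. Another 16 genes with one had their 3' end nearer to a TSS, which makes 1529 genes in all, the same number as there are peaks by coincidence. By nearest 3' end the peaks belonged to 1399 genes, of which 1275 had 1 peak, 118 had 2 and 6 had 3.

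Most genes with a 3'-end peak also had a promoter peak, 85.6% against 59.5% of genes without one and 61.5% of all such genes. Read the other way, 10.7% of genes with a promoter peak had a 3'-end peak, against 2.87% of genes with none. Other marked elements lay around them too. Outside the promoter and the 3' end, 63.1% of genes with a 3'-end peak had another replicated peak in the gene body, against 33.8% of genes without. Another non-promoter peak lay within 10 kb of the 3' end in 69.1% and 27.1%. Within genes that had a promoter peak, these last shares were 72.7% and 37.1%, so the clustering was present among marked genes as well.

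Convergent neighbours were frequent. A convergent gene, one on the other strand whose own 3' end lies within 5 kb downstream or overlaps, was found at 43.0% of genes with a 3'-end peak, against 26.3% of genes without and 27.6% of all. For convergent coding genes within 1 kb the shares were 20.2% and 8.55%. Seen from the 3' ends, 16.4% of those with a convergent coding 3' end within 1 kb had a peak (95% Wilson interval 14.8 to 18.2%), against 6.04% of those with no convergent 3' end within 5 kb (5.66 to 6.44%). The pair of genes shares the place, so 1 peak can count for both, and the interval of 14.8 to 18.2% is too narrow. In all, 158 peaks lay within 1 kb of at least 2 coding 3' ends, and 2 of these of at least 3. With each peak counted once, by its nearest gene, 13.1% of the members had a convergent coding 3' end within 1 kb. That is below the 20.2% found by gene. The share of all such genes, 9.44%, is also by gene, so the 13.1% has no background by peak beside it.

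The state of both promoters moved with this share. When both genes of a convergent coding pair within 1 kb had a promoter peak, 254 of 1223 3' ends had a 3'-end peak (20.8%, 18.6 to 23.1%). With a promoter peak at the gene alone the share was 8.27% (22 of 266), at the neighbour alone 8.92% (24 of 269) and at neither 5.66% (6 of 106). Genes with a promoter peak and no convergent coding 3' end within 5 kb stood at 8.82% (8.25 to 9.43%), and those with neither at 2.34% (2.0 to 2.74%). The share at pairs with both promoters marked thus lay above that at single marked genes. Both ends of such a pair are counted and 1 peak can count for both, so its interval is too narrow. With the gene alone marked, the interval (5.53 to 12.2%) included the 8.82% of single marked genes. With the neighbour alone marked, the interval (6.07 to 12.9%) lay above 2.34%, the share of unmarked genes with no such neighbour. The gene-alone and neighbour-alone ends come from pairs with only 1 gene marked, so 1 peak can count in both shares. The shares of 8.27% and 8.92% are thus not independent of each other.

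Genes lying across the 3' end on the other strand were more frequent as well, at 21.0% of genes with a 3'-end peak, against 13.9% of genes without and 14.5% of all. Where the overlapping gene was coding the shares were 17.3% and 9.88%. Many of these are convergent genes. Of the 318 genes with a 3'-end peak and such an overlap, 227 (71.4%) also had a convergent 3' end within 5 kb. That is 34.9% of the 650 convergent ones. The same share was not counted over genes without a 3'-end peak, so the 71.4% has no background beside it. A gene starting within 5 kb downstream on the same strand was not more frequent, at 11.4% against 13.5%. In that arrangement the window around the next start removes positions from the count. The same limit touches 3' ends 1 to 2 kb from a basic TSS, of which 3.17% had a peak, against 7.43 to 9.26% at the longer distances.

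**Figure D3:**
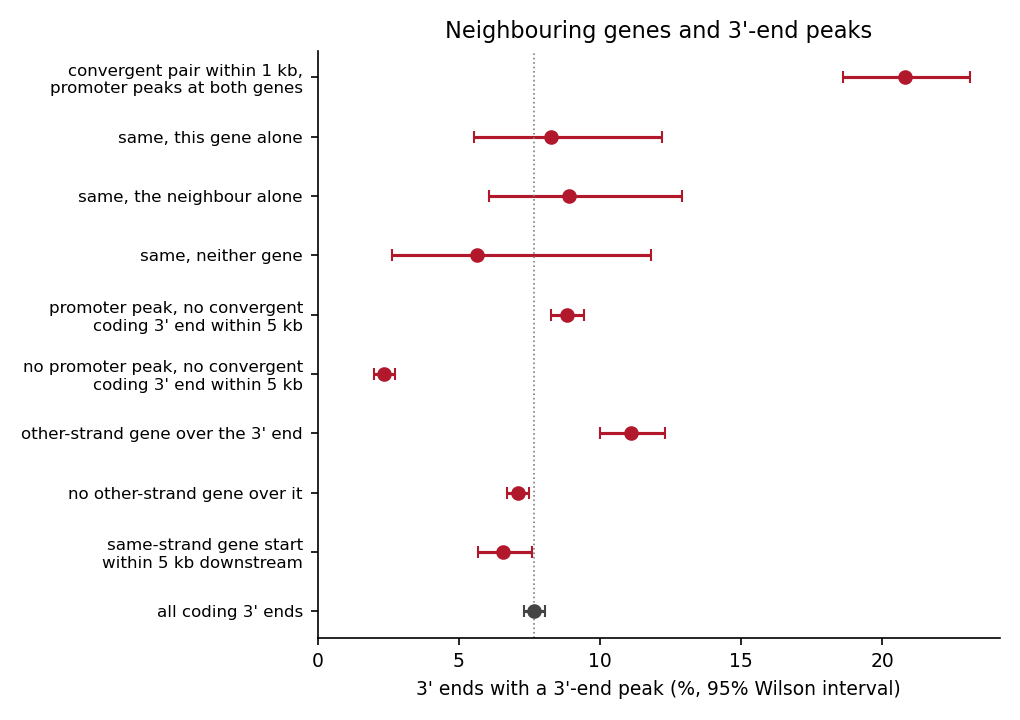
Share of coding 3' ends with a 3'-end peak (%, x axis) for arrangements of neighbouring genes and promoter peaks (rows), with points for the share, bars for 95% Wilson intervals (counting error only) and a dotted line at the share of all coding 3' ends, 7.67%. Convergent pairs with promoter peaks at both genes stand at 20.8%, and their interval takes both ends of a pair as separate. The rows for this gene alone and the neighbour alone can also count the same peak.

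Among genes with a promoter peak, the share with a 3'-end peak ran from 8.61% (7.45 to 9.93%) in genes longer than 100 kb to 11.7% (10.7 to 12.8%) in those of 5 to 20 kb. Over all coding 3' ends, length classes ran from 5.33% (0 to 5 kb) to 8.76% (50 to 100 kb). Over the same ends, with or without a promoter peak, chromosomes differed more. Chromosome 11 had the highest share, 177 of 1461 3' ends (12.1%, 10.5 to 13.9%). On chromosome X 14 of 842 had one (1.66%, 0.993 to 2.77%), and the remaining autosomes ran from 5.47% to 9.75%. None of 126 on chromosome Y had one, which allows a share of up to 2.38% (3 counts of the total). All samples came from male mice. Whether sex or the share of genes with a promoter peak accounts for the low X and Y values was not tested.

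The 15 strongest 3'-end peaks, by signal in the replicated list, were all overlapped in both pool lists. Of these 15, 14 covered the 3' end, 9 had their summit in no gene and 8 were CpG-rich. The strongest lay at Shf, an adaptor protein gene with an SH2 domain, at chr2:122347923-122349599. Its signal was 29.3 in the replicated list, 32.4 in pool C and 20.8 in pool D, and its summit lay 51 bp past the 3' end. Duox1, a dual oxidase gene on the other strand, ends within 920 bp of it, and the window around the summit had a GC content of 73.6% and a CpG ratio of 0.844.

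Dnajb12, which encodes a co-chaperone of the endoplasmic reticulum, had a signal of 28.7 in the replicated list, 31.4 in pool C and 20.5 in pool D. That peak spanned 8045 bp and had a CpG ratio of 0.187, so it was CpG-poor, and a RefSeq transcript starts within 1 kb of it. Rtn4r, the Nogo receptor that limits axon growth, had a peak of 12402 bp with 21.2 in the replicated list, 24.0 in pool C and 14.7 in pool D. The summit lay 407 bp past the gene's end, at the CTCF word printed above. Both are broad, and neither window was CpG-rich.

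Among the CpG-rich ones, Zfp771, a zinc finger gene, had 23.7 in the replicated list, 29.9 in pool C and 13.7 in pool D, with the summit in coding sequence 843 bp before the end. The nonagouti gene, whose symbol is a and whose product blocks melanocortin receptors in hair follicles, had 22.5, 23.8 in pool C and 17.4 in pool D. Its summit lay in the coding sequence as well, 374 bp before the end. Tmem44, a membrane protein gene, had 20.6 in the replicated list, 27.4 in pool C and 17.8 in pool D, with the summit 981 bp past the end in the CG-dense stretch printed above. In all 3 the pool C value was the higher, as it was in each of the 15.

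**Figure D4:**
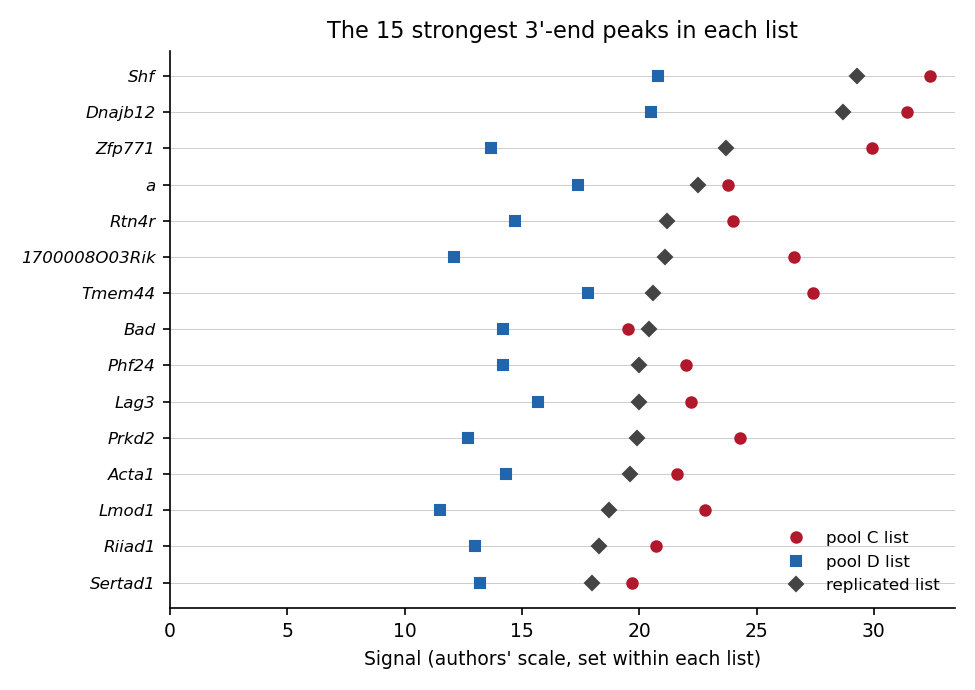
Signal (authors' scale, set within each list, x axis) of the 15 strongest 3'-end peaks (rows, by nearest gene) in the pool C, pool D and replicated lists. All 15 have a value in every list, and the pool C value is above the pool D value in each row, as it is for the medians of 6.63 and 4.36. The pool C peak at Phf24 also reaches a TSS window.

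Some of the strongest 3'-end peaks sat at convergent pairs. At chr7:44358904-44361392 a peak with 21.1 in the replicated list, 26.6 in pool C and 12.1 in pool D covered the overlapping 3' ends of 1700008O03Rik and Shank1, a scaffold of the postsynaptic density. At chr19:6950177-6953665 a peak with 20.4, and with 19.5 in pool C and 14.2 in pool D, held the ends of Bad, a pro-apoptotic member of the Bcl-2 family, and Plcb3, a phospholipase C, 426 bp apart. Its CpG-rich summit lay between the genes, 115 bp past Bad, and a GENCODE start outside the basic set lies within 1 kb. Dda1 and Ano8 had a peak with 16.0 in the replicated list, 18.9 in pool C and 10.7 in pool D, also CpG-rich, with a GC content of 71.4%. Rnf26 and Usp2, a ubiquitin protease gene, end 4 bp apart under a peak of 4439 bp with 14.2 in the replicated list, 15.8 in pool C and 10.9 in pool D, near a RefSeq start. As a group the members with a convergent coding 3' end within 1 kb were no stronger, with a median signal of 3.82 against 3.9 in the rest.

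At 230 members (15%) the nearest gene had no promoter peak, and some of these were among the strongest. Lag3, an inhibitory receptor of lymphocytes, had 20.0 in the replicated list, 22.2 in pool C and 15.7 in pool D, with the summit 282 bp past its end. Acta1, the actin of skeletal muscle, had 19.6 in the replicated list, 21.6 in pool C and 14.3 in pool D, in a CpG-rich window within the non-coding part of a coding gene's exon. That peak lay 1305 bp from the nearest basic TSS, not far outside the 1 kb window. Lmod1, an actin nucleator of smooth muscle, had 18.7, with 22.8 in pool C and 11.5 in pool D, and its CpG-rich summit is printed above. Pomc, the precursor of several peptide hormones, had 16.9, with 19.9 in pool C and 12.3 in pool D, and its summit lay in coding sequence 465 bp before the end. Slc23a3 had 16.8, with 17.6 in pool C and 14.9 in pool D, and both a RefSeq and another GENCODE start lay within 1 kb. All 5 are genes with no replicated peak at their own starts, and 4 of the 5 windows were CpG-rich, all but that of Lag3. The median signal of the 230 was 4.07, against 3.82 at genes with a promoter peak.

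A few members were wide. Among the widest members were, beside that of Rtn4r, those of Ap3m1 with 10745 bp and a signal of 7.35, Nrde2 with 8693 bp and 7.74, and the convergent pair of Unk and Unc13d with 8328 bp and 11.6. Their summits lay 2403 bp past the 3' end at Ap3m1, 1261 bp past it at Nrde2 and 751 bp past it at Unk, so the rule placed some wide peaks by a midpoint far from the summit. In all, 21 members (1.37%) spanned at least 5 kb, beside 965 of the 67730 other non-promoter peaks, which is a like share. Their median signal was 11.6, and every one was overlapped in both pool lists. An overlap of 1 bp is enough for that, so wide peaks meet it more easily. Over all members, 1367 had the summit within 1 kb of the end.

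At the edge of the rule, the members just inside 1 kb were those of Rnf7 at 1000 bp with a signal of 3.59, Cabp7 at 999 bp with 2.89 and Kansl1 at 999 bp with 2.39. Just outside lay peaks near Tmem174 at 1001 bp with 8.44, Ppp1r9a at 1001 bp with 3.12 and Orc3 at 1002 bp with 2.56.

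Genes of 22 lists covering hippocampal cell types, synapses, activity response and other tissues were then counted. In all, 56 of 337 list genes with a 3' end over 1 kb from basic TSSs had a 3'-end peak (16.6%), beside 7.67% of all such genes and 10.7% of those with a promoter peak. As a check of the labelled tissue, promoter peaks stood at 20 of 20 excitatory neuron genes, 13 of 14 dentate granule cell genes, 14 of 14 CA field genes and 20 of 20 astrocyte genes, and at 4 of 16 muscle, 3 of 16 liver and 0 of 16 Hox genes. Other cell types of the tissue had them at 19 of 20 oligodendrocyte, 7 of 12 oligodendrocyte precursor, 14 of 20 microglia, 13 of 20 endothelial and mural and 5 of 12 choroid plexus and ependymal genes, of which all but the oligodendrocyte list lie near or below the background of 61.5%.

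Postsynaptic genes had the most, 8 of 19. Shank1 was the strongest, with the signal of 21.1 given above. Homer3, a scaffold that links glutamate receptors, had 9.02 in the replicated list, 11.1 in pool C and 7.55 in pool D, and Dlgap3, a scaffold of the same density, had 7.21, 6.66 in pool C and 4.78 in pool D. Homer2, Shank2, Camk2a, Baiap2 and Nrgn made up the rest. Excitatory neuron genes had 6 of 20. Tbr1, a cortical transcription factor, had 8.67 in the replicated list, 10.3 in pool C and 5.24 in pool D under a CpG-rich window. Neurod2, a neuronal bHLH factor, had 8.33, with 9.63 in pool C and 6.29 in pool D, 232 bp before its end at the midpoint. That peak lay 163 bp from a promoter peak. Slc17a7, the vesicular glutamate transporter, shared a peak of 4.97 with the convergent gene Gfy, 5.33 in pool C and with no overlapping peak in pool D. Nrgn, a calmodulin-binding neuronal protein, shared one with the convergent gene Vsig2, with 3.21 in the replicated list and 7.59 in pool C.

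Presynaptic genes had 2 of 20, at Snap25 with 6.94 and at Rab3a with 4.28, both genes of vesicle release. The Rab3a peak was shared with the convergent gene Mpv17l2 and lay 121 bp from a promoter peak, with no overlapping peak in pool D. Calmodulin and calcium-binding genes had 4 of 11. Among them Hpca, the neuronal calcium sensor hippocalcin, shared with Tmem54 a peak of 5.9 in the replicated list, 6.97 in pool C and 4.2 in pool D. Microtubule and neurofilament genes had 3 of 18, with the strongest at Mapt, the gene of tau, at 6.48 in the replicated list, 6.45 in pool C and 6.29 in pool D. It lay over the 3' end of Mapt, facing that of Kansl1 1139 bp away, which had a member of its own. Immediate early genes had 4 of 21, all weak: Per1 at 3.67, Nr4a3 and Bdnf at 3.12 each, and Junb.

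Of the glial lists, astrocyte genes had 6 of 18. Gfap, the intermediate filament of astrocytes, had one of the stronger members, 15.5 in the replicated list, 17.0 in pool C and 11.1 in pool D, in the non-coding part of a coding gene's exon 816 bp before the end. Fam187a, a convergent coding gene, ends 605 bp from it. Atp1b2, a sodium pump subunit, had 6.59 in the replicated list and 4.61 in pool D, and its 15.2 in pool C belonged to a wider pool C peak that also reaches a TSS window. S100b, a calcium-binding protein of astrocytes, shared with the convergent gene Dip2a a peak of 3.7 in the replicated list and 4.72 in pool C. Oligodendrocyte genes had 3 of 19, Aspa at 5.32, Ermn at 4.1 (shared with Galnt5) and Cnp at 3.12. Precursor genes had 2 of 11, Cspg4 at 7.52 and Olig2 at 3.73, which lay 176 and 95 bp from a promoter peak. Microglia had 2 of 20 and endothelial and mural cells 2 of 18, none of them above 3.12.

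Of the 20 GABA interneuron genes 8 had a promoter peak. No GABA interneuron gene of 20, none of 12 dentate granule cell genes counted and none of 12 Hox genes had a 3'-end peak. Counts of 0 allow shares of up to 15% among the interneuron genes and up to 25% in the 2 other lists (3 counts of the total), so the background of 7.67% lies within both limits. Dentate C1ql3, whose 3' end lies near a TSS and was not counted, shared a peak of 3.24 with Pter. Muscle genes had 3 of 16, with Myog, a muscle bHLH factor, at 4.45 beside Acta1 and Mylpf, the last shared with Sept1. Liver genes had 2 of 16, Apoa1, an apolipoprotein, at 5.55 in a CpG-rich window and Foxa3 at 3.93. The Apoa1 peak lay 1092 bp from the nearest basic TSS, with another GENCODE start within 1 kb. Counts in lists from other tissues thus stood near those of several brain lists.

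**Figure D5:**
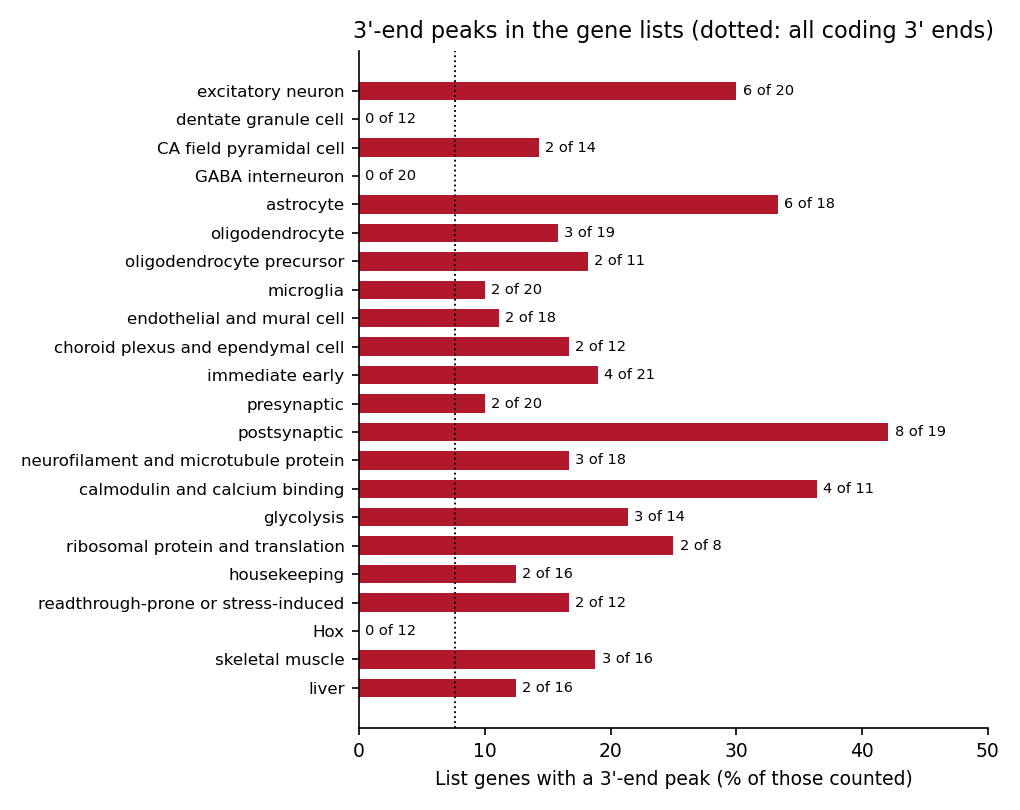
Share of list genes with a 3'-end peak (%, x axis), by gene list (rows), over genes whose 3' end lies over 1 kb from basic TSSs, with the counts beside each bar and a dotted line at 7.67% for all coding 3' ends. Postsynaptic genes are highest with 8 of 19, and 3 lists have none.

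Glycolysis, translation and housekeeping genes had 3 of 14, 2 of 8 and 2 of 16. Gapdh, the glycolytic dehydrogenase, shared a peak of 4.51 with the convergent gene Iffo1, with 4.9 in pool C and 3.13 in pool D. Pkm, pyruvate kinase, had 4.74, with 4.92 in pool C and 3.99 in pool D, at a CpG-rich window beside a RefSeq start. Eef1a2, the elongation factor of neurons and muscle, had 4.74 in the replicated list and 5.54 in pool C, and Rack1, a ribosome-bound scaffold, had 3.46, shared with Trim41. Genes known for readthrough or stress induction had 2 of 12. Txnip, an arrestin-like regulator of glucose uptake, had 4.63, with 4.95 in pool C and 3.99 in pool D. Sgk1, a glucocorticoid-induced kinase, had 3.72, with 3.96 in pool D, 90 bp from a promoter peak. Its 34.1 in pool C was that of a peak which also reaches a TSS window. That happened at 27 members in pool C and at 0 in pool D, so pool C values of such members are not of the 3' end alone.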

How the data were processed

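H3K27ac ChIP-seq of 2 tissue pools was deposited as 4 peak lists on mm10 per the labels: pool C, pool D, both together, and replicated. For the aligner, peak caller and read depth, nothing is given in the sources used here. Each deposited list gives a signal value and a −log10 q-value per peak, read as the authors' own scores, and a summit offset. Peaks were placed with GENCODE M21 by gene record and basic transcripts, in Python 3.11.15 with numpy 2.4.6, pandas 2.3.3 and scipy 1.17.1. Pool values are those of the pool peak with the longest overlap of at least 1 bp. Expected counts were computed exactly per peak width and tested on simulated data. Sequence is from RefSeq GRCm38.p6. No p-values are given, because there is 1 group and regions are not replicates. Wilson 95% intervals cover counting error only.

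The members, the 22 gene lists and the tests were chosen with earlier results of these data known. Named peaks are the 15 strongest, the 10 widest, up to 3 per list, the 5 strongest of each neighbour or sequence class and of those with several 3' ends, and 3 on either side of the 1 kb limit. Sequences come from these. One of the widest is not reported here. Homer2, Shank2, Camk2a, Baiap2 and Junb are named to complete counts. Alternatives covered distance, TSS set and window, thresholds, lists, pools and the point that places a peak.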

Additional observations from a re-analysis of the deposited data

How the results depend on the processing

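The lists give 1 value a peak and no read depth, which limits every count of weak peaks. Of 134 recomputed values, 100 were labelled as moved by less than the spread, 34 as moved by more and 0 as changed in direction. The spread was taken as the larger of the SD between the pool lists and the 95% Wilson interval. The 100 include the count of 1053 with pool C left out, which differed from 1529 by slightly more than its spread of 468. Most values are counts, shares or medians of the members alone, which cannot change direction. The 0 thus does not bear on comparisons with other peaks or genes. The RefSeq start sites and the folds over non-promoter peaks alone were added after seeing the data. The count of 3'-end peaks, 1529, was 768 within 500 bp, 3546 within 2.5 kb, 607 above the median signal and 877 when the peak had to cover the 3' end. Their share of replicated peaks was 0.864%, 3.99%, 1.39% and 0.986% in the same settings, 1.47% with a TSS window of 2.5 kb and 1.56% with all GENCODE starts. The fold over even placement was 1.06 above the median signal, where promoter peaks, which cannot be 3'-end peaks but enter the expectation, made up 37.2% of the list, against 7.7% at or under the median. Over non-promoter peaks alone it was 1.5, with 1.55 above the median signal and 1.48 at or under it. The median signal was 4.21 at a −log10 q of at least 5, 5.79 above the median of the list, 3.59 in the list of both pools together and 5.12 in peaks that cover the end, and 4.20 to 4.39 leaving out a pool. Overlap in both pool lists was 53.5%, 88.0%, 37.5% and 71.5% in the same settings, and 31.1% when 50% of the peak had to be shared. Genes with a promoter peak were 79.5% above the median signal. Convergent 3' ends within 5 kb were at 45.5% within 500 bp, 39.7% within 2.5 kb, 46.1% in peaks that cover the end, 40.1% with all GENCODE starts, and 21.5% when counted within 1 kb. Other-strand genes were at 18.8% and CpG-rich windows at 9.06% above the median signal, and CpG-rich windows at 4.20 to 6.55% leaving out a pool. The cause of these shifts was not tested, except that thresholds and distances set the counts by construction. Motif shares rose in windows of 500 bp, which are longer. No value could be had for overlap in both pool lists without a pool, or for the fold when a peak must cover the end.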
